A study of Mus musculus with 24 samples.

Results

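The 10 genes C1qa, C1qb, C1qc, Cd5l, Vsig4, Clec4f, Marco, Mpeg1, Adgre1 and Csf1r mark Kupffer cells and other macrophages, and their levels were followed in 24 mouse livers. They were chosen by symbol. Of 45101 probe sets on the array, 15 carried one of these symbols and no other. Of the 10 genes, 9 passed the filter on low values, as did 13130 of all 18193 genes. Marco did not pass.

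RNA of each liver was hybridised to its own Affymetrix array with 3' probes, from 6 male BALB/c mice in each of 4 groups, 6 weeks old on arrival. STZ mice received 1 intraperitoneal dose of streptozotocin, 185 mg/kg, and ate the purified diet AIN93G for 14 days. A week after the injection, mice with a non-fasting glucose of 230 to 400 mg/dL had been selected and divided among 3 diets. The next groups were STZ mice given that diet with 0.1% or 0.5% quercetin for 14 days. Control mice ate AIN93G and were not injected, so the comparison with control holds the injection, its vehicle and the selection by glucose together. Streptozotocin, a DNA-alkylating relative of glucose, enters cells through the transporter GLUT2 and kills pancreatic beta cells, and hepatocytes carry that transporter too. Quercetin is a plant flavonol. Cages held 3 mice, and the labels tie no mouse to a cage.

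Kupffer cells are the resident macrophages of the liver sinusoids. They clear bacteria, aged red cells and complement-coated particles from portal blood, depend on the growth factor receptor encoded by Csf1r, and are a main source of complement C1q. The lineage factor PU.1, encoded by Spi1, binds purine-rich DNA with a GGAA core near many macrophage genes.

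Promoters of 4 markers are shown because they belong to the genes that separated STZ from control livers, or, for C1qc, to the partner chain of C1qb. The sequences are from RefSeq on GRCm38.p6, run from 250 bases before to 50 after the annotated start, and are written 5′ to 3′ along the gene. Capitals mark the motif GAGGAA or its reverse complement TTCCTC.
C1qb, chr4:136886151-136886450, minus strand: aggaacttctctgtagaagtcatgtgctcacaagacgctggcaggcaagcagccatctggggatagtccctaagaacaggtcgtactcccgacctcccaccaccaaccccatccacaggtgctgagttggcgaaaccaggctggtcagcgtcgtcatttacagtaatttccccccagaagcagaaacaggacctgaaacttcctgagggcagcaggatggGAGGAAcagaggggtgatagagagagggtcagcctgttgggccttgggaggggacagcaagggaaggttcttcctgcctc
C1qc, chr4:136892865-136893164, minus strand: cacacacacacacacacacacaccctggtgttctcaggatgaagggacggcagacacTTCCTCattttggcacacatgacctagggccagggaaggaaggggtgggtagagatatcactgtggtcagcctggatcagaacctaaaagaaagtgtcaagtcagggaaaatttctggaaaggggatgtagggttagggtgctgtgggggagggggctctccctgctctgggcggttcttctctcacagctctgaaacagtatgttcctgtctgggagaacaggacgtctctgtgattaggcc
Cd5l, chr3:87357631-87357930, plus strand: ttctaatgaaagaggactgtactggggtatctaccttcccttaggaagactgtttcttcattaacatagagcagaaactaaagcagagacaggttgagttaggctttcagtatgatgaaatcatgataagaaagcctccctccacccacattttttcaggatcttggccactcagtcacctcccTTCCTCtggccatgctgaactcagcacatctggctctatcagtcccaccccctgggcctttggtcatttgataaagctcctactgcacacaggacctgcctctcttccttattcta
Mpeg1, chr19:12460520-12460819, plus strand: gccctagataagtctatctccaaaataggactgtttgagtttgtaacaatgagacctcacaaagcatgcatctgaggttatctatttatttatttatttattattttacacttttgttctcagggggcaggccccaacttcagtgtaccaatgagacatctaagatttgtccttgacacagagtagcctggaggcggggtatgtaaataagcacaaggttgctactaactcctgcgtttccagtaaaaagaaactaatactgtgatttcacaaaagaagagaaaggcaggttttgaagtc
C1qb, C1qc and Cd5l each held the motif 1 time, at 30, 193 and 66 bases before the start, counted from the leftmost base of the motif, and Mpeg1 did not hold it. Of the 7 markers with a listed promoter, 5 held GAGGAA on either strand (C1qb, C1qc, Cd5l, Marco and Vsig4), where 28.3% of 32851 listed promoters did. The longer form GAGGAAGT, which contains the first motif, was in 1 of 7 (C1qc) and in 3.20% of all. The Maf-type sequence TGCTGAC was in 0 of 7 and in 4.67% of all. The motifs were chosen after the expression values were seen, and a match describes letters only.

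The deposited array means ranged from 61.0 to 102, and levels below are linear intensities after quantile normalization across the 24 arrays. Differences are on the log2(intensity + 16) scale, which understates changes of dim genes, and tests are limma with Benjamini-Hochberg adjustment over 13130 genes and a threshold of 0.05. A level is not compared between genes, because probe sets differ in brightness. Hepatocyte genes described the tissue: 9 of 11 listed were tested, none passed in STZ against control, and Alb differed by 0.03 (SE 0.06, adjusted p = 0.867). A measure of RNA quality, the log2 signal of Gapdh control probes at the 3' end less that at the 5' end, was -0.34 ± 0.10 in STZ mice, -0.32 ± 0.15 at 0.1% and -0.21 ± 0.17 at 0.5% quercetin, and -0.04 ± 0.17 in controls (SD, n = 6 each). At 0.5% quercetin, replicates 5 and 6 stood apart from the other 4 mice, and the counts of called genes in that group against control are given with and without them.

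In STZ livers, C1qa, C1qb, Cd5l and Mpeg1 were higher than in control livers by 0.48 to 0.70 on the log2 scale, or 1.40- to 1.62-fold. These were 4 of the 9 markers tested. Across all genes, 2.00% were called higher (263 genes) and 1.69% lower (222 genes), a split that was 121 and 41 on the values as deposited, 170 and 280 under median scaling and 243 and 356 under 75th percentile scaling. All 9 markers had a higher mean in STZ mice, with a median difference of 0.36, whereas the median over all genes was -0.02 and 44.8% of genes lay above 0. Of the 4 called markers, only Mpeg1 passed on the values as deposited, and Mpeg1 and C1qb passed under median scaling. In whole liver, more macrophages and more RNA per macrophage cannot be told apart. The Gapdh difference also differed between these groups, with a mean of -0.34 in STZ mice and -0.04 in controls. Whether it moved with these markers from mouse to mouse was not tested. With the Gapdh difference as a term in the fit, 0 of 9 passed, where 0.0305% of all genes were called higher. The differences of C1qa, C1qb, Cd5l and Mpeg1 were then 0.28, 0.34, 0.38 and 0.47, and the part of RNA quality was not tested beyond this fit.

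C1qa, C1qb and C1qc encode the A, B and C chains of C1q, the recognition subunit that starts the classical complement pathway. C1qb (1417063_at) had intensities of 170, 202 and 224 (lowest, median and highest of 6) in STZ mice, 174, 201 and 230 at 0.1% quercetin, 95.5, 184 and 208 at 0.5%, and 107, 119 and 163 in controls. Every STZ mouse lay above every control, and the difference was 0.62 (SE 0.15, limma adjusted p = 0.0165). C1qa (1417381_at) had 169, 234 and 242 in STZ mice, 191, 209 and 242 at 0.1%, 116, 187 and 252 at 0.5%, and 134, 149 and 178 in controls. For C1qa, 5 of 6 STZ mice were above all controls and STZ replicate 4 overlapped them, with a difference of 0.48 (SE 0.14, limma adjusted p = 0.0478) close to the threshold. C1qc (1449401_at) had 119, 144 and 170 in STZ mice, 123, 144 and 172 at 0.1%, 70.9, 147 and 206 at 0.5%, and 105, 112 and 121 in controls. Its groups overlapped through 1 STZ mouse, and the difference of 0.32 (SE 0.14) did not pass (limma adjusted p = 0.245). The other 2 probe sets of C1qb (1437726_x_at and 1434366_x_at), of a type that can share sequence with other transcripts, differed by 0.36 and 0.32 where the representative differed by 0.62. In a fit over all probe sets, the first passed (limma adjusted p = 0.0368) and the second did not (0.16). Of 8 listed genes of the C1 complex and its inhibitor, 6 were tested, and the 2 called in STZ mice were C1qa and C1qb. At 0.1% quercetin the inhibitor gene Serping1 was also higher than in controls, by 0.36 (SE 0.09, limma adjusted p = 0.0186), and C1ra, a protease of the complex made mainly by hepatocytes, fell by 0.28 (SE 0.08, limma adjusted p = 0.0357).

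**Figure D1:**
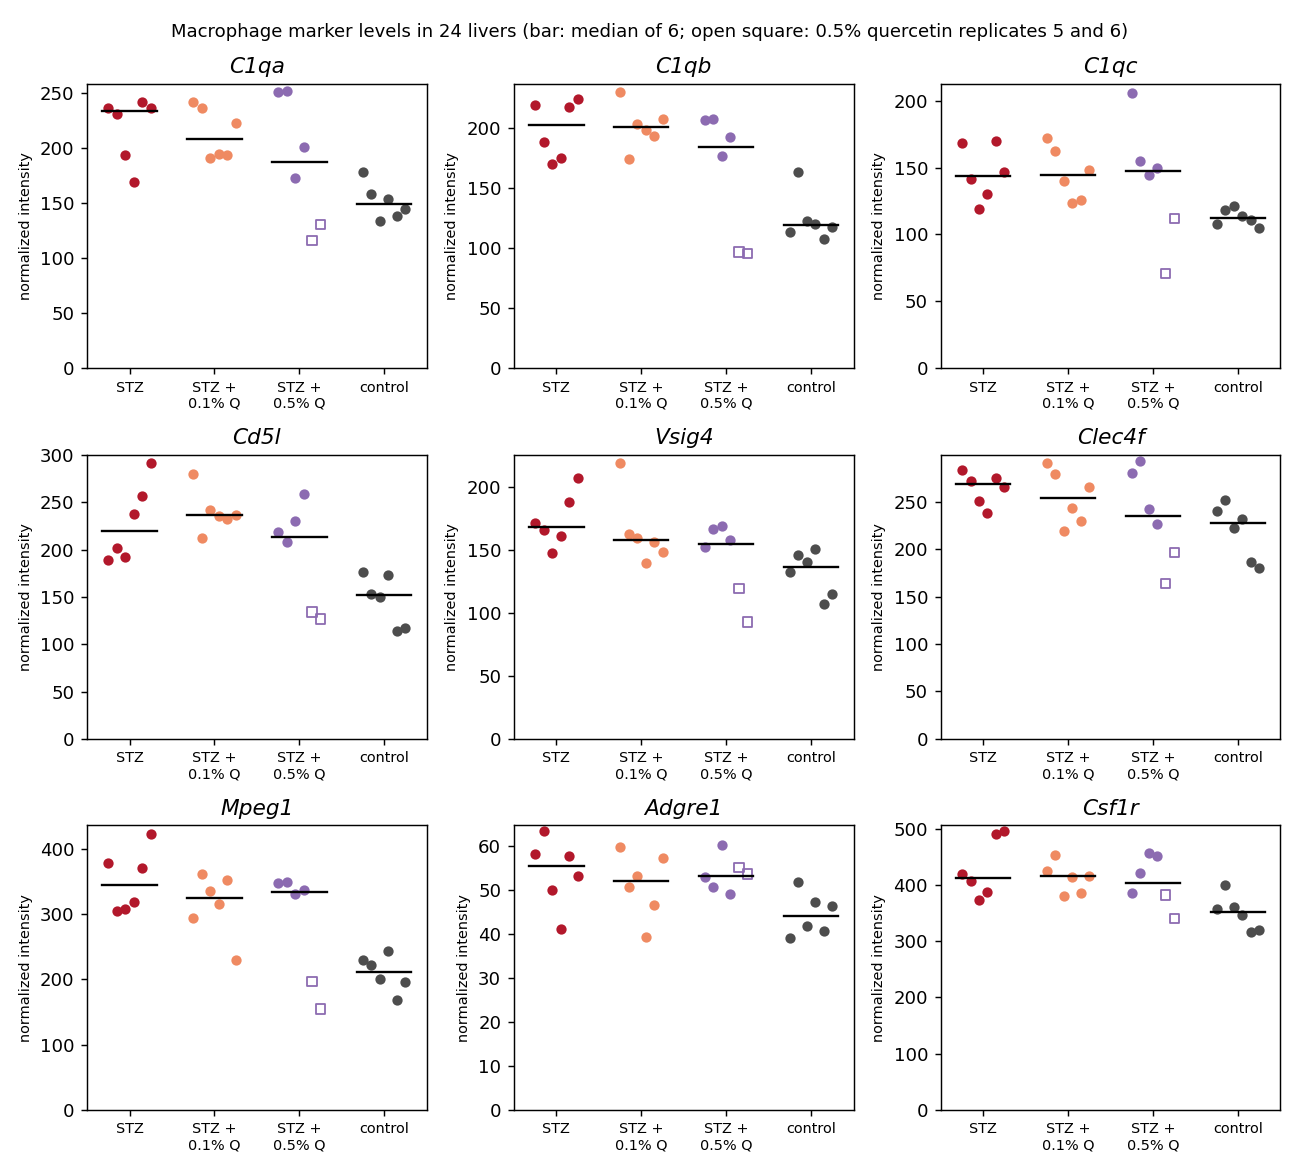
Normalized intensity (y axis, linear, from 0) of the 9 markers tested in each of 24 livers, by group (x axis, Q for quercetin), with a bar at the median of 6. In the 0.5% quercetin group, the open squares of replicates 5 and 6 lie below the other 4 mice for 8 of 9 markers. The share of all genes split this way was not counted.

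The receptors and secreted scavenger proteins differed in how far their groups separated. Cd5l encodes a secreted scavenger receptor protein, also called AIM, that supports macrophage survival. Cd5l (1449193_at) had intensities of 189, 220 and 292 in STZ mice, 212, 236 and 280 at 0.1% quercetin, 127, 213 and 259 at 0.5%, and 114, 152 and 177 in controls. STZ and control mice did not overlap, and Cd5l rose by 0.58 (SE 0.14, limma adjusted p = 0.0204). Vsig4, the complement receptor CRIg through which Kupffer cells capture bacteria, was read by 1451651_at and had 148, 169 and 207 in STZ mice, 139, 158 and 220 at 0.1%, 93.0, 155 and 169 at 0.5%, and 107, 137 and 151 in controls. For Vsig4, 5 of 6 STZ mice were above all controls, and the difference of 0.36 (SE 0.12) did not pass (limma adjusted p = 0.103). Clec4f, a C-type lectin found in mouse on Kupffer cells, was read by 1449905_at and had 238, 268 and 283 in STZ mice, 219, 254 and 291 at 0.1%, 164, 235 and 293 at 0.5%, and 180, 227 and 252 in controls. Its groups overlapped, and the difference of 0.26 (SE 0.11) did not pass (limma adjusted p = 0.215).

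Marco, a scavenger receptor of marginal zone and some tissue macrophages, was near the floor of the array. Its 2 probe sets lay between 0.523 and 5.67 in STZ mice, 1.13 and 13.6 at 0.1%, 0.493 and 6.07 at 0.5%, and 0.296 and 6.08 in controls, against a filter of 4.04 on the mean over all arrays. No difference is given for Marco.

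Mpeg1, which encodes the pore-forming macrophage protein perforin-2, was read by 1427076_at and had intensities of 305, 345 and 422 in STZ mice, 230, 325 and 361 at 0.1% quercetin, 154, 334 and 348 at 0.5%, and 169, 211 and 243 in controls. STZ and control mice did not overlap, and Mpeg1 rose by 0.70 (SE 0.16, limma adjusted p = 0.0113), a fold of 1.62. Groups that do not overlap, with STZ above control, were found for 3 of 9 markers (C1qb, Cd5l and Mpeg1) and for 1.96% of all genes.

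Adgre1, the gene of the surface antigen F4/80, was read by 1451161_a_at and had intensities of 41.0, 55.4 and 63.4 in STZ mice, 39.2, 51.9 and 59.7 at 0.1% quercetin, 49.0, 53.2 and 60.2 at 0.5%, and 39.0, 44.0 and 51.7 in controls. Its groups overlapped in every comparison, and STZ differed from control by 0.21 (SE 0.09, limma adjusted p = 0.211). Csf1r, the receptor for the macrophage growth factors CSF1 and IL-34, was read by 1419872_at and had 373, 413 and 497 in STZ mice, 380, 416 and 452 at 0.1%, 341, 403 and 457 at 0.5%, and 316, 352 and 400 in controls. The STZ difference of 0.28 (SE 0.09) did not pass (limma adjusted p = 0.0736). The other 2 probe sets of Csf1r (1423593_a_at and 1419873_s_at) differed by 0.35 and 0.22, and neither passed in the fit over all probe sets (limma adjusted p of 0.0704 and 0.424). The ligand genes Csf1 and Il34 differed by -0.05 (SE 0.13) and 0.06 (SE 0.11) between STZ and control, and Spi1 by 0.17 (SE 0.13), with limma adjusted p of 0.897, 0.841 and 0.559. None of the 7 tested genes of the Csf1r signalling list passed in this comparison.

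In STZ mice given 0.1% quercetin, the same comparison with control gave 4 of 9 markers higher, again C1qa, C1qb, Cd5l and Mpeg1, where 2.92% of all genes were called higher (383 genes) and 2.63% lower (345 genes). That split was 127 and 90 on the values as deposited, 219 and 539 under median scaling and 335 and 416 under 75th percentile scaling, and 0, 2 and 3 markers passed under these scalings. C1qb was higher by 0.64 (SE 0.15, limma adjusted p = 0.00954), Cd5l by 0.66 (SE 0.14, adjusted p = 0.00631), Mpeg1 by 0.54 (SE 0.16, adjusted p = 0.0375) and C1qa by 0.46 (SE 0.14, adjusted p = 0.049). These 2 comparisons share the 6 control mice. All 3 C1q chains and Cd5l lay above every control in 6 of 6 mice, while Mpeg1 overlapped through replicate 6. That is 4 of 9 markers without overlap, and 2.10% of all genes had none in this direction. Vsig4, C1qc, Csf1r, Clec4f and Adgre1 differed by 0.28, 0.32, 0.23, 0.21 and 0.15 and did not pass. With the Gapdh difference in the fit, 0 of 9 passed and 0.0228% of all genes were called higher. The differences of C1qa, C1qb, Cd5l and Mpeg1 at 0.1% were then 0.27, 0.38, 0.48 and 0.34.

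Set directly against STZ mice, 0.1% quercetin mice showed no called marker, and 0.00% of genes were called in either direction (limma, with 693 of 13130 genes at an unadjusted p under 0.05). The differences ran from -0.15 for Mpeg1 (95% interval -0.47 to 0.17) to 0.08 for Cd5l (95% interval -0.22 to 0.37). All 9 markers overlapped between these groups, where 0.114% of genes lay wholly higher and 0.0990% wholly lower. For C1qb the difference was 0.02 (95% interval -0.28 to 0.32).

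**Figure D2:**
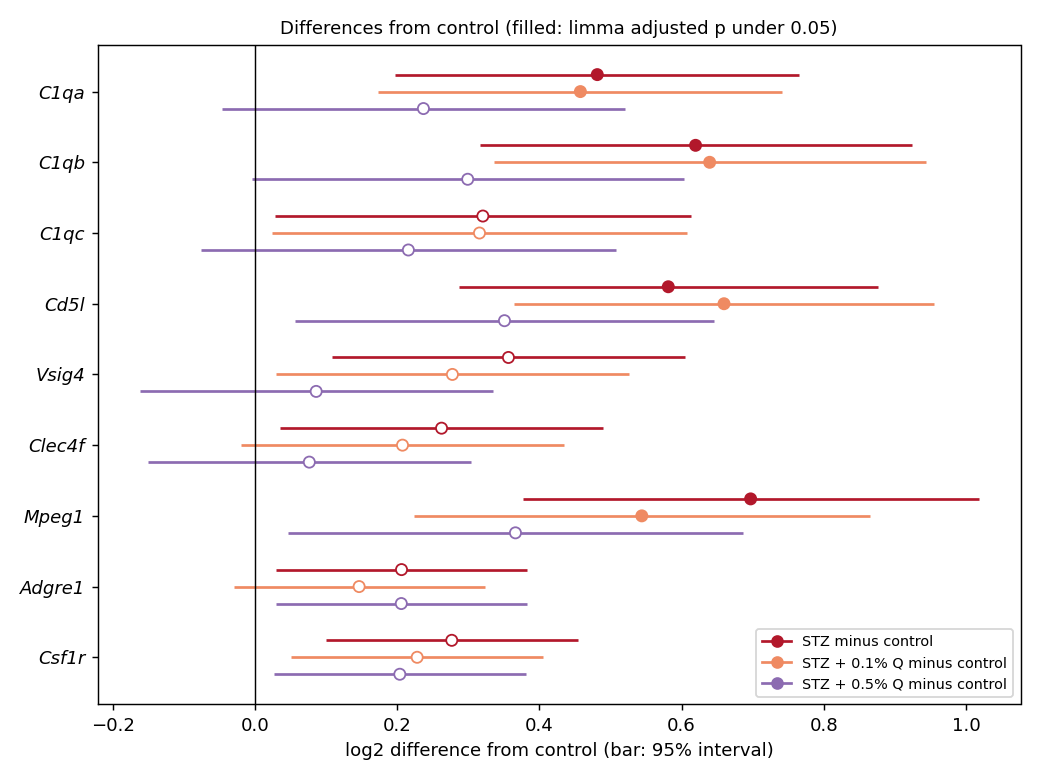
Log2 difference from control (x axis) of each marker (y axis) in STZ mice and in STZ mice given 0.1% or 0.5% quercetin (Q), with 95% intervals from limma. Filled points passed an adjusted p of 0.05: C1qa, C1qb, Cd5l and Mpeg1 in STZ mice and at 0.1%, and none at 0.5%.

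At 0.5% quercetin, 0 of 9 markers passed against control, where 0.0457% of all genes were called higher (6 genes, and 34 under median scaling) and 0.0685% lower (9 genes, and 639 under median scaling), and 1611 of 13130 had an unadjusted p under 0.05. Mpeg1 differed from control by 0.37 (SE 0.16, limma adjusted p = 0.328), Cd5l by 0.35 (SE 0.14, adjusted p = 0.304) and C1qb by 0.30 (SE 0.15, adjusted p = 0.414). Against STZ mice, 0 of 9 passed and 0.00% of all genes were called in either direction (986 genes at an unadjusted p under 0.05). All 9 markers had a lower mean than in STZ mice, from -0.33 for Mpeg1 (95% interval -0.65 to -0.01) and -0.32 for C1qb (95% interval -0.62 to -0.02) to 0.00 for Adgre1 (limma adjusted p of 0.639, 0.633 and 1). Against 0.1% quercetin, 0 of 9 passed, 0.00% of all genes did (1090 at an unadjusted p under 0.05), and the differences ran from -0.34 for C1qb to 0.06 for Adgre1.

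The group was split within itself. Replicates 5 and 6 lay below the other 4 mice for 8 of 9 markers, all but Adgre1, and each was at or below the highest control for those 8. The share of all genes split this way was not counted, so the count does not set the markers apart from other genes. Mpeg1 was at 196 and 154 in these 2 mice and between 331 and 348 in the other 4, against 169 to 243 in controls. C1qb was at 96.5 and 95.5 in them, under the lowest control of 107, and between 177 and 208 in the other 4. Cd5l was at 134 and 127 against 208 to 259 in the other 4. The gap was small for Csf1r, at 382 and 341 against 386 to 457 in the other 4. The SD of C1qb on the log2 scale was 0.48 at 0.5% quercetin, 0.16 in STZ mice and 0.12 at 0.1%, against 0.19 in controls. The Gapdh difference of replicates 5 and 6, at -0.06 and 0.01, lay in the range of controls (-0.18 to 0.28), and the other 4 mice were between -0.40 and -0.14. Replicate 1, at -0.14, also lay in the range of controls, and the median deviation of its markers from the control mean was 0.54. Whether RNA quality had a part in the low values of replicates 5 and 6 was not tested.

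Replicates 5 and 6 were singled out with these same markers known to be low in them, so values without them describe the other 4 mice. No p-value and no count of markers past the threshold is given for these 4 mice. Without replicates 5 and 6, 1.77% of all genes were past the threshold and higher at 0.5% quercetin against control (233 genes) and 1.50% lower. Mpeg1 differed from control by 0.67, C1qb by 0.60, Cd5l by 0.60, C1qa by 0.48 and C1qc by 0.47. Csf1r differed by 0.28, Vsig4 by 0.27, Clec4f by 0.24 and Adgre1 by 0.20. In the same fit, those 4 mice differed from STZ mice by -0.03 for Mpeg1, -0.02 for C1qb, 0.02 for Cd5l and 0.15 for C1qc. Leaving out only replicate 5 or only replicate 6 gave 0 markers at 0.5% against control.

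**Figure D3:**
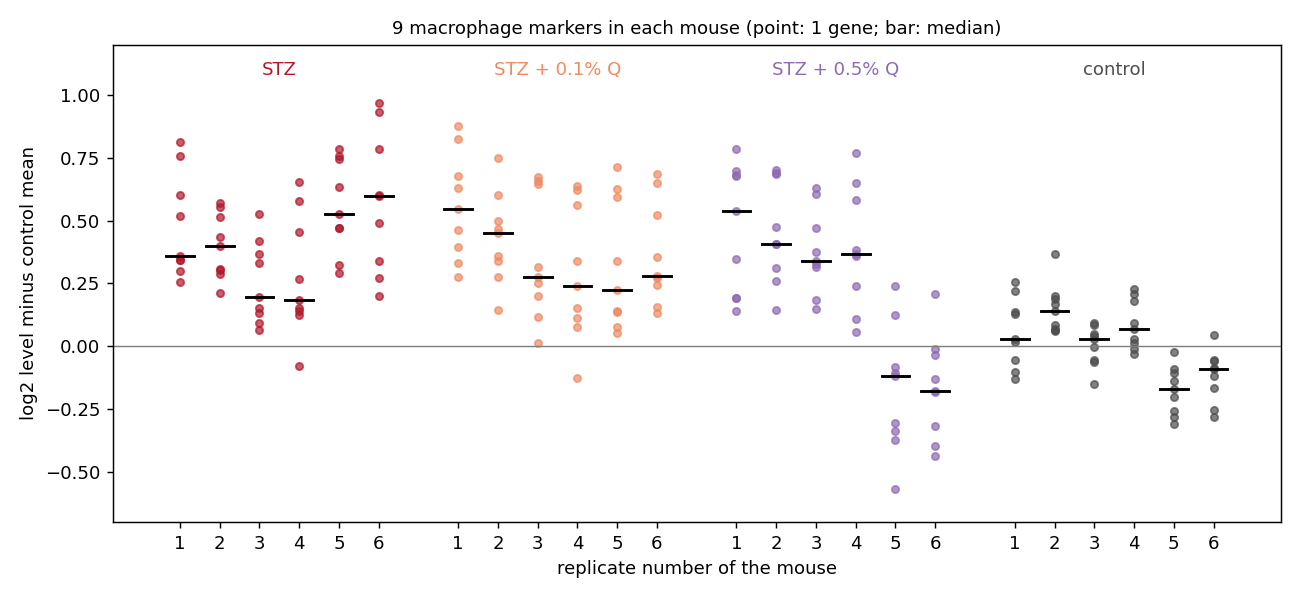
Log2 level minus the control mean (y axis) of the 9 markers in each mouse (x axis, replicate number within a group), with a bar at the median of the 9. The medians of 0.5% quercetin replicates 5 and 6 were -0.12 and -0.18, and those of controls ran from -0.17 to 0.14, while those of the other 4 mice were 0.34 to 0.54.

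Single mice also mattered for the STZ counts. Leaving out STZ replicate 6, which had the highest median deviation of the STZ mice (0.60), left 1 marker called against control, and leaving out control replicate 5 or 6 left 2. In STZ mice, the median deviation of the 9 markers from the control mean was 0.18 to 0.60, and 4 of 6 mice had all 9 markers above every control. In 0.1% quercetin mice it was 0.23 to 0.55, with all 9 above every control in 1 of 6 mice. In controls it was -0.17 to 0.14, with replicates 5 and 6 at the low end. The share of all genes above every control in each mouse was not counted, so these counts do not set the markers apart from other genes. For 0.1% quercetin against control, the count was 2 without control replicate 2, 3, 5 or 6, and 2 without any of 0.1% replicates 1 to 5.

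Within groups, most pairs of markers were positively correlated from mouse to mouse, more closely with 0.5% quercetin replicates 5 and 6 than without them. Over 24 arrays and 36 pairs of markers, Pearson's r of the deviations from the group means had a median of 0.61, from -0.07 (Mpeg1 and Adgre1) to 0.87 (C1qa and Clec4f). Without 0.5% quercetin replicates 5 and 6, the median was 0.44 over 22 arrays, and the highest values were 0.76 for C1qa and Clec4f, 0.71 for Cd5l and Vsig4 and 0.66 for C1qa and C1qc. Of the 36 pairs, 27 had r above 0.5 over 24 arrays and 11 over 22 arrays. These values share arrays and normalization and are given as a description, and pairs of other genes were not examined.

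Among genes outside the 10, those whose deviations followed the mean of the 9 markers most closely over 24 arrays were H2-D1, a class I antigen-presenting molecule, Cdkn1a, a p53-induced inhibitor of cell division, Tcirg1, a subunit of the vacuolar proton pump, Ly6e, an interferon-inducible surface protein, and Ctsb, a lysosomal cysteine protease. Their Pearson's r was 0.91, 0.86, 0.86, 0.86 and 0.83. By level over the same arrays, the leading genes were H2-D1, Cdkn1a, Ly6e, Ccng1 and H2-K1, with r of 0.95, 0.93, 0.93, 0.91 and 0.91. Without 0.5% quercetin replicates 5 and 6 the order of the deviations changed: over 22 arrays Ehd3, Itih3, Tapbpl, Prg4 and Clec14a led with r of 0.78, 0.77, 0.76, 0.75 and 0.75. Of the genes named before, Tcirg1 and H2-D1 then had 0.70 and 0.69. Cdkn1a had 0.50, Ly6e 0.46, Ctsb 0.43, H2-K1 0.42 and Ccng1 0.36.

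Of 29 other macrophage genes, 27 were tested, and 6 were higher and none lower in STZ mice (2.00% and 1.69% of all genes). The 27 had a median of 0.26, with 25 above 0. Ctss, the lysosomal protease cathepsin S, had 229, 293 and 393 in STZ mice against 166, 189 and 227 in controls, and rose by 0.60 (SE 0.12, limma adjusted p = 0.00617). Fcgr4, an activating receptor for IgG, rose by 0.57 (SE 0.13, limma adjusted p = 0.0115). Both genes were above all controls in 6 of 6 mice, as were 1.96% of all genes. The receptor tyrosine kinase gene Axl, the adhesion receptor gene Adgre4, the lysozyme gene Lyz1 and the lipopolysaccharide co-receptor gene Cd14 rose by 0.44, 0.47, 0.41 and 0.37. Lyz1 has a close paralogue, Lyz2, with which its probes could share signal. Cd68, a lysosomal glycoprotein of macrophages, differed by 0.24 in STZ mice (adjusted p = 0.245) and was higher at 0.1% quercetin by 0.46 (SE 0.11, limma adjusted p = 0.00984). At 0.1% quercetin against control, 7 of 27 were higher, where 2.92% of all genes were. Among the 7 were Lgals3, a galactose-binding lectin, by 0.59, and Cybb, the NADPH oxidase subunit of phagocytes, by 0.49. At 0.5%, 0 of 27 passed, where only 0.0457% of all genes were called higher. Without replicates 5 and 6, 3 of 27 (Cd68, Ctss and Cybb) were past the threshold and higher, where 1.77% of all genes were. That count rests on leaving out these 2 mice.

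Of 15 other genes listed for Kupffer cell identity, 13 were tested, and 0 were higher and 1 lower in STZ mice (2.00% and 1.69% of all genes). The 13 had a median of 0.04, with 7 above 0. The one that fell was C6, a terminal complement component that hepatocytes make as well, by 0.99 (SE 0.25, limma adjusted p = 0.0211), at 187, 266 and 425 in STZ mice against 488, 561 and 601 in controls. Timd4, a phosphatidylserine receptor of resident Kupffer cells, had 13.9, 18.1 and 19.5 in STZ mice and 8.99, 11.8 and 15.1 in controls, and did not pass at 0.25 (SE 0.10, limma adjusted p = 0.182). Nr1h3, the liver X receptor alpha gene, differed by -0.09 (SE 0.07, adjusted p = 0.598). Whether these genes differ from the 9 markers in their change was not tested.

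Markers of other cells, in this and the next paragraph, were described beside these values. In STZ against control, 2.00% of all genes were called higher and 1.69% lower. Of 9 pan-leukocyte genes, none passed in STZ mice, but 8 lay above 0, with a median of 0.11. Their summed intensity was 420 to 547 in STZ mice and 362 to 464 in controls. Ptprc, which encodes CD45, differed by 0.27 (SE 0.10, limma adjusted p = 0.153). At 0.1% quercetin against control, 2 of the 9 were called higher and 0 lower, where 2.92% and 2.63% of all genes were. These were Ptprc by 0.38 (SE 0.10, limma adjusted p = 0.0243) and Arhgdib by 0.35 (SE 0.10, limma adjusted p = 0.0421), and the list median was 0.27. Of 14 monocyte genes, 10 were tested and 0 passed (median 0.08, sums of 1819 to 2124 in STZ mice and 1774 to 1911 in controls). Fn1, with a mean log2 level of 10.83 in STZ mice and 10.75 in controls, made up most of these sums. The sums therefore say little about the other monocyte genes. Ly6c2, Ly6c1 and Chil3 were among the monocyte genes not tested, and the chemokine receptor gene Ccr2 differed by 0.07 (SE 0.13). Of 12 neutrophil genes, 8 were tested and 0 passed (median -0.01), Camp, Retnlg, Mmp8 and Cxcr2 were not tested, and the sums of 165 to 362 in STZ mice and 90.3 to 171 in controls moved with Lcn2, which hepatocytes also make and which differed by 1.14 (adjusted p = 0.0725). The neutrophil gene S100a8 differed by 0.06 (SE 0.19). At 0.1% quercetin against control, 1 of the 8 neutrophil genes was called higher and 0 lower. It was Lcn2, by 1.71 (SE 0.35, limma adjusted p = 0.00407). Of 10 dendritic cell genes, 6 were tested and 0 passed, with sums of 23.6 to 45.8 in STZ mice and 25.7 to 50.6 in controls, while Xcr1, Clec9a, Ccr7 and Ccr9 were under the filter or had no probe set. Their part in the marker differences was not tested.

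Sinusoidal endothelial genes, 13 of 13 tested, had a median of -0.03 and sums of 938 to 1132 in STZ mice and 993 to 1088 in controls. One of them, Lyve1, a hyaluronan receptor also present on some macrophages, rose by 1.02 (SE 0.18, limma adjusted p = 0.00182), with 39.7, 48.3 and 59.9 in STZ mice against 11.3, 16.7 and 21.8 in controls. Stab2 and Clec4g, other genes of that endothelium, differed by -0.20 and -0.19 and did not pass. Of 11 stellate cell genes, Dcn was higher by 0.41 (SE 0.10, limma adjusted p = 0.0221) and the list median was 0.11. Of 14 T and NK cell genes, 6 were tested and 0 passed, with Cd3e, Cd4 and Lck among those not tested. Of 8 B and plasma cell genes, 5 were tested and 2 fell in STZ mice, Ighm by 1.63 (SE 0.30) and Jchain by 0.58 (SE 0.13), with sums of 51.6 to 103 in STZ mice and 176 to 332 in controls. Of 7 erythroid genes 2 were tested, and Alas2, which starts haem synthesis in red cell precursors, differed by -0.69 (SE 0.22, limma adjusted p = 0.0764).

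**Figure D4:**
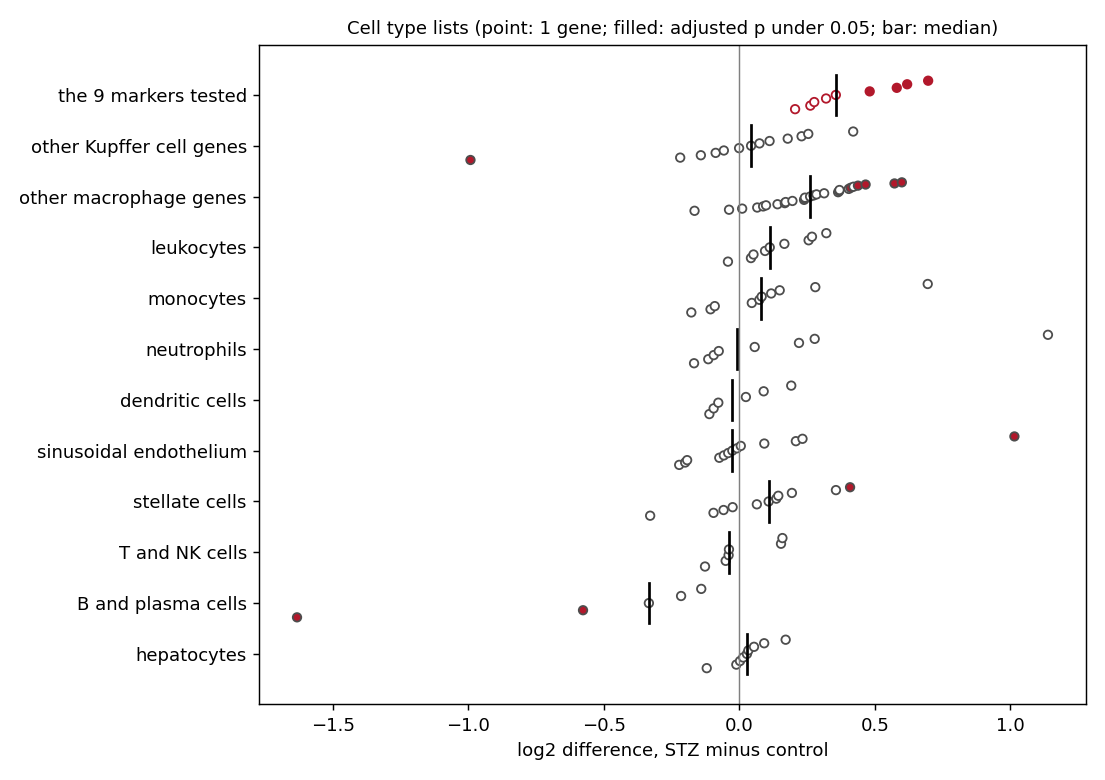
Log2 difference of STZ minus control livers (x axis) for each tested gene (point) of 12 cell type lists (y axis), with a bar at the list median and filled points past an adjusted p of 0.05. The 9 markers had a median of 0.36 and the other macrophage genes of 0.26, while the other Kupffer cell genes had 0.04 and hepatocyte genes 0.03.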

How the data were processed

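The deposited table held linear probe set intensities, 1 value per probe set and array. The authors' summary algorithm and scaling are not given in the sources used here. Per the labels, biotin-labelled cRNA was made from the total RNA of each mouse. Values were all above 0 and right-skewed, and array means differed 1.67-fold, so the scale was read as linear and uncentred, with direction as signal, and any scaling target stays unknown. No 2 arrays held identical values, and correlations between arrays were 0.969 to 0.987.

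Intensities were quantile normalized across 24 arrays and converted to log2(value + 16). Symbols came from the platform annotation, which gave 1 symbol to 34958 probe sets, several to 932 and none to 9211. The brightest probe set on average stood for a gene, and a gene was kept if that mean reached the 40th percentile over the whole array. Tests used limma (version 3.58.1, R 4.3.3), with 4 group means in 1 fit, two-sided, Benjamini-Hochberg adjusted, threshold 0.05. The fit was tested on simulated data. Array number limits the precision. Cages of 3 mice were not tied to mice in the labels, so p-values measure the spread between these mice, which may share a cage. The markers, lists and tests were chosen with earlier results of these data known.

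Named genes were the 10 markers, the called members of each other list (at most 6 by p, or the 1 with the smallest p), 12 genes fixed with the lists, and the 5 genes most like the markers. Of 36 pairs of arrays sharing a replicate number, 5 had deviations correlated above 0.1 (range -0.14 to 0.32), so the numbers were not taken as pairs. Alternatives were other scalings, constants, filters and probe set rules, a trend, the Gapdh difference, blocks and leaving out each mouse.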

Additional observations from a re-analysis of the deposited data

Results flagged for a closer look

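Over 36 combinations of marker and group, a gap of the highest or lowest of 6 mice to its neighbour that exceeded Dixon's critical share of the group's range on the log2(intensity + 16) scale was found 2 times, and chance gives about 1 in 20. Vsig4 in 0.1% quercetin replicate 1 was at an intensity of 220, with the other 5 mice at 139 to 162, and the gap was 0.668 of the range on the log2 scale. C1qb in control replicate 2 was at an intensity of 163, with the other 5 controls at 107 to 123, and the gap was 0.688 of the range on the log2 scale. The low values of 0.5% quercetin replicates 5 and 6 were not found this way, because these 2 mice lie next to each other.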

How the results depend on the processing

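The 4 markers called in STZ against control, and the same 4 at 0.1% quercetin against control, kept their direction under all 39 alternatives. The number called was 4 in each comparison. In STZ against control it was 1 on the values as deposited, 2 under median scaling and 0 with the Gapdh difference as a term. It was 3 under 75th percentile scaling, with a constant of 1, without the filter, with all probe sets tested and with probe sets averaged. It was 5 with a constant of 64, 6 with only the 2 groups in the fit and 6 without 0.5% replicates 5 and 6, and 1 to 4 when each mouse was left out. At 0.1% against control it was 0 as deposited, 2 under median scaling, 2 with a constant of 1, 2 without the filter and 0 with the Gapdh difference. It was 3 under 75th percentile scaling, with all probe sets tested and with probe sets averaged. It was 5 with only the 2 groups and 5 without 0.5% replicates 5 and 6, and 2 to 4 when each mouse was left out. At 0.5% against control it was 0. The count at 0.5% without replicates 5 and 6 is not given, because these 2 mice were singled out for low values of these markers. Leaving these 2 mice out did not change the differences of the STZ and 0.1% groups from control. It lowered the spread that the 4 groups share, as for Vsig4 in STZ against control (SE 0.121 with them, 0.098 without). The counts of 6 and 5 without these mice therefore add no separate support. C1qa lost its STZ call in 18 of 24 fits without 1 mouse, C1qb in 1, Cd5l in 3 and Mpeg1 in 0. For 0.1% against control, C1qa lost its call in 18 of 24, Mpeg1 in 9, and C1qb and Cd5l in 0. The causes were not tested. With the replicate block, 4 markers were called in STZ against control and 4 at 0.1%, and the block changed no count of markers in any comparison. With the Gapdh difference, the genes called in STZ against control numbered 4 higher and 2 lower, against 263 and 222 without it, and 3 and 1 at 0.1% against control, against 383 and 345. At 0.5% against control, 6 and 9 became 73 and 56 without replicate 5 and 87 and 60 without replicate 6.

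Signs turned only for differences that had not passed. Without 0.5% replicates 5 and 6, 0.5% minus STZ became 0.0031 for C1qa, 0.148 for C1qc, 0.016 for Cd5l and 0.0060 for Csf1r, and 0.5% minus 0.1% became 0.027 for C1qa, 0.153 for C1qc, 0.033 for Clec4f, 0.055 for Csf1r and 0.125 for Mpeg1. Under median scaling, 0.5% minus control was -0.086 for Clec4f and -0.066 for Vsig4, 0.5% minus 0.1% was -0.015 for Adgre1, and 0.1% minus STZ was -0.000568 for C1qb. C1qb at 0.1% minus STZ was -0.042 as deposited and -0.050 with probe sets averaged, and C1qc was 0.013 under 75th percentile scaling and 0.0016 with the Gapdh difference. Adgre1 at 0.5% minus STZ was 0.0019 with a constant of 1 and 0.024 with the Gapdh difference. When each mouse was left out in turn, 0.1% minus STZ ran from -0.090 to 0.0063 for C1qa, -0.020 to 0.057 for C1qb and -0.056 to 0.037 for C1qc. 0.5% minus STZ then ran from -0.057 to 0.038 for Adgre1 and -0.219 to 0.052 for C1qc, and 0.5% minus 0.1% from -0.214 to 0.057 for C1qc and -0.058 to 0.023 for Csf1r.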
